A study of Mus musculus with 12 samples.

Results

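Chromatin immunoprecipitation followed by sequencing (ChIP-seq) of acetylation at lysine 27 of histone H3 (H3K27ac) was compared between 2 libraries of fibro-adipogenic progenitors (FAPs), 1 from old mice given trichostatin A (TSA) and 1 from young mice given vehicle. The old TSA mice were 12 months old and received TSA at 0.6 mg/kg/day. The young vehicle mice were 1.5 months old and received saline. Both groups were C57Bl6 mdx mice, a dystrophin-deficient strain used to model Duchenne muscular dystrophy, and were injected into the peritoneum daily for 15 days before cells were sorted from muscle. No dystrophin-competent mice are among the groups, the labels name neither the markers of the sort nor whether animals were pooled. The pair differs in age, with it in disease stage, and in treatment, so these cannot be told apart between these 2 libraries. The comparison asks how near the H3K27ac landscape of old, TSA-treated FAPs lay to that of young, untreated FAPs. The libraries old vehicle (12 months, saline) and young TSA (1.5 months, TSA at the same dose) stand beside them as landmarks.

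The peaks compared were those of both deposited lists on chromosomes 1 and 2 and on chromosome 3 up to position 122275556 (build GRCm38), the stretch that both lists cover. They numbered 7571 in old TSA and 7891 in young vehicle, 15462 of the 77135 complete peaks read from all 8 lists of the series. Each group is 1 library, so differences were described and not tested, and the errors given cover counting only. A difference between libraries cannot be told apart from one between the preparations, and fewer cells of a type cannot be told apart from less acetylation per cell.

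H3K27ac is deposited at active promoters and enhancers by the acetyltransferases p300 and CBP and is removed by histone deacetylases, which TSA inhibits. FAPs are mesenchymal cells that lie between muscle fibres. After injury they support muscle stem cells, and in dystrophic muscle they give rise to fibroblasts that lay down collagen and to adipocytes that replace muscle.

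Promoter sequences of 5 named genes are shown first, because they are the places where peaks of the libraries parted or met. Each runs from 250 bases before to 50 bases after a RefSeq transcription start (GRCm38.p6). Capitals mark matches on either strand to 5 motifs. Motifs of transcription factor families were TGANTCA for AP-1 and GGAATG for TEAD. The motif of the factor NF-Y was the CCAAT box. Core promoter motifs were the TATA box, searched as TATAAA, and the GC box, searched as GGGNGG. Neighbouring GC boxes may overlap, and a match is a run of letters, not a binding site. Dab2ip, a Ras GTPase-activating protein gene, and Cdc25b, a phosphatase gene of mitotic entry, had a promoter with a peak in old TSA and none in young vehicle.
Dab2ip, chr2:35582590-35582889, plus strand: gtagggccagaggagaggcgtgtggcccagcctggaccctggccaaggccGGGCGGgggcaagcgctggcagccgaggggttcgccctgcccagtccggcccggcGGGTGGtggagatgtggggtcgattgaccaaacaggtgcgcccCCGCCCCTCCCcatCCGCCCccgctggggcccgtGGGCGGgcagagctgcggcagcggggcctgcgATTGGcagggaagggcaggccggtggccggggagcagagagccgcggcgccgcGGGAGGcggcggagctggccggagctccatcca
Cdc25b, chr2:131186698-131186997, plus strand: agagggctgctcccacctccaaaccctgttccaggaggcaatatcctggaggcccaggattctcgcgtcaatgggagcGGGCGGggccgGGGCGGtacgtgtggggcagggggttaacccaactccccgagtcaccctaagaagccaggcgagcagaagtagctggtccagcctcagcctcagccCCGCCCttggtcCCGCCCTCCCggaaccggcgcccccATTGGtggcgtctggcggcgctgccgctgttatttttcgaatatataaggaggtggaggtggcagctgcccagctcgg

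Postn encodes periostin, a matrix protein of injured and fibrotic tissue. Its start shown here had a peak in young vehicle and none in old TSA. The sequence holds a TATA box upstream of the start.
Postn, chr3:54360857-54361156, plus strand: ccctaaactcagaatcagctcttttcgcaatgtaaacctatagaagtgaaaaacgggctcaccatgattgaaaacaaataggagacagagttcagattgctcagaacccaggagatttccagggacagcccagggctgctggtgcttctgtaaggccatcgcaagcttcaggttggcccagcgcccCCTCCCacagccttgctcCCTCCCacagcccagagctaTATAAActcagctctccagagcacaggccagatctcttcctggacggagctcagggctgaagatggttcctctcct

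B2m, which encodes the light chain of major histocompatibility complex class I, and Tgfbrap1, an adaptor of TGF-beta receptors, held the most tags among named promoters with a peak in both libraries.
B2m, chr2:122147437-122147736, plus strand: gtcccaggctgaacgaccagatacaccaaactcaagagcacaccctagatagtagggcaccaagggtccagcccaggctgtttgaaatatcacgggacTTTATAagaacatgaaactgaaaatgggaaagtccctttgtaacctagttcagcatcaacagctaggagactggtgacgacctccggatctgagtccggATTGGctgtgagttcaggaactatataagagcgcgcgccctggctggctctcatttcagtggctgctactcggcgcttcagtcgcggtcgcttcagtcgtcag
Tgfbrap1, chr1:43098579-43098878, minus strand: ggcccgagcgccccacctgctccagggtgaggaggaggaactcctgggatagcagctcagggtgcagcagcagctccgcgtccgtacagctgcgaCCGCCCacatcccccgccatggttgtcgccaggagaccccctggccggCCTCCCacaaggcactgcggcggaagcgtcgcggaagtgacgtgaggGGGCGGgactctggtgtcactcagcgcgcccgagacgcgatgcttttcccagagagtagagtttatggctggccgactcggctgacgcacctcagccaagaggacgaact

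Within 1000 bp of these starts, Dab2ip held 201 tags in old TSA and no peak in young vehicle. Cdc25b held 179 tags in old TSA and no peak in young vehicle. Old vehicle had a peak at both of these starts, and young TSA had one at that of Dab2ip only. At the Postn start there was no peak in old TSA, against 269 tags over 1507 bp in young vehicle. B2m held 810 tags in old TSA and 945 in young vehicle, with the whole window of 2001 bp covered in both, and Tgfbrap1 held 739 tags in old TSA and 773 in young vehicle. A tag is a sequenced fragment end that the authors counted in a peak, and no peak means only that none was listed. The table lists 4 starts for Dab2ip and 2 each for Postn and Tgfbrap1, and all their other starts were marked in both libraries. At the other Postn start there were 147 tags in old TSA and 360 in young vehicle.

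The libraries were of similar size. Peaks of the stretch held 1497491 tags in old TSA and 1659160 in young vehicle, and covered 6.91 Mb in old TSA and 8.05 Mb in young vehicle. Old vehicle had fewer, 5727 peaks with 952786 tags, and young TSA had 5945 peaks with 1376021 tags. Peaks of old TSA were narrower, with a median width of 664 bp against 755 bp in young vehicle, and carried 217 tags per kb of peak against 206 in young vehicle. The fragment offset in the file headers, with which HOMER centres tags, was 97 bp in old TSA and 105 bp in young vehicle. Its part in the width was not tested.

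Strong acetylation was in the same places in both libraries. When peaks that overlapped or touched were merged into regions, 5416 regions held a peak of both lists, 1246 held old TSA peaks only and 2044 held young vehicle peaks only. Shared regions contained 95.0% of the old TSA tags and 91.9% of the young vehicle tags. All 155 regions with at least 1000 tags in old TSA and all 181 with at least 1000 tags in young vehicle were shared. Regions of 1 library were weak, with a median of 52 tags in old TSA and 56 in young vehicle. In shared regions the medians were 169 tags in old TSA and 182 in young vehicle.

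Whether a peak was found in the other list followed its strength. Of old TSA peaks under 50 tags, 51.9% (exact 95% interval 48.9 to 54.8) overlapped a young vehicle peak, and of young vehicle peaks under 50 tags, 35.2% (32.5 to 37.9) overlapped an old TSA peak. From 100 to under 200 tags the shares were 94.2% (93.1 to 95.2) of old TSA peaks and 86.9% (85.2 to 88.4) of young vehicle peaks. From 400 tags upward all 922 old TSA peaks and all 1127 young vehicle peaks were found in the other list. Below 200 tags the share found was the lower one for young vehicle peaks, whose list was also the longer.

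**Figure D1:**
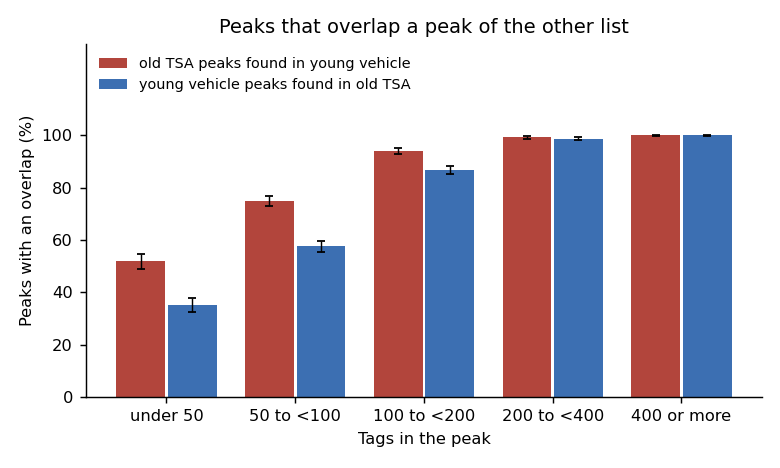
Share of peaks (%) that overlap a peak of the other list, by tags in the peak, for old TSA (red, left) and young vehicle (blue, right), with exact 95% binomial intervals. Both shares climb to 100% from 400 tags upward, and below 200 tags the old TSA share is the higher one.

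Tags in shared regions followed 1 line more closely in strong regions than in weak ones. Their Spearman correlation was 0.89 over all shared regions, 0.85 in the upper 50% by tags and 0.48 in the lower 50%. The median log2 ratio of old TSA over young vehicle was -0.10, and it was 0.07 when tags were divided by peak length, since peaks were narrower in old TSA in 3598 shared regions and wider in 1808. All ratios below are centred on the median of -0.10, because total mapped tags were not used here. Of shared regions, 75.6% lay within 1.5-fold of the median. Regions at least 2-fold above it with at least 50 tags in the pair numbered 203 of 5416, 3.75%, and those at least 2-fold below it numbered 244, 4.51%. The SD of the log2 ratio was 0.57 over all shared regions, 0.80 in the second decile of tags and 0.27 in the top decile, where counting alone gives a median error of 0.07.

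**Figure D2:**
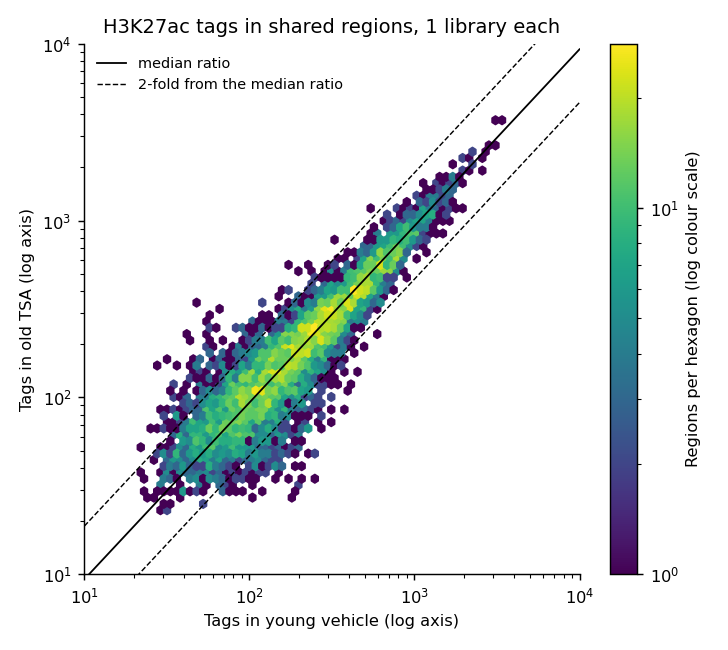
Tags per shared H3K27ac region in old TSA (vertical, log axis) against young vehicle (horizontal, log axis), 5416 regions binned into hexagons coloured by number of regions (log colour scale). The solid line is the median ratio and dashed lines lie 2-fold either side, and the cloud narrows towards strong regions.

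The regions that parted the libraries lay mostly away from promoters. A promoter here is 1000 bp either side of a RefSeq start, or of either gene end where the promoter table has no entry. Promoters held 14.3% (12.4 to 16.4) of old TSA only regions, 7.05% (5.97 to 8.24) of young vehicle only regions and 40.3% (39.0 to 41.6) of shared regions. Of shared regions at least 2-fold higher in old TSA, 28.1% (22.01 to 34.8) touched a promoter, and of those at least 2-fold lower, 8.61% (5.41 to 12.9) did. Young vehicle only regions were most often inside a gene, 63.6% (61.5 to 65.7), against 48.5% (45.7 to 51.3) of old TSA only regions. Ratios also spread less at promoters, with an SD of 0.44 over 2182 promoter regions and 0.64 over 3234 others. The median counting error was smaller there too, 0.13 against 0.18 at the others. The part of tag level in the spread and in the placement was not tested.

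Regions of 1 library were also looked up in the landmark libraries. Of old TSA only regions, 14.6% (12.7 to 16.7) held an old vehicle peak and 16.4% (14.4 to 18.5) a young TSA peak. Of young vehicle only regions, 9.15% (7.93 to 10.5) held an old vehicle peak and 22.2% (20.4 to 24.0) a young TSA peak. Most were weak, as above, and the landmark lists are shorter.

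Set beside the other pairs of H3K27ac libraries, old TSA lay between old vehicle and young TSA in its overlap with young vehicle. Bases covered in both libraries made up 64.2% of bases covered in either for old TSA and young vehicle, 54.6% for old vehicle and young vehicle, and 65.8% for young TSA and young vehicle. With each list cut to its 5727 strongest peaks, a setting chosen after seeing the data, these were 65.3%, 57.6% and 68.5%. Over the 3706 regions with a peak in all 4 libraries, the SD of the log2 ratio to young vehicle was 0.50 for old TSA, 0.54 for old vehicle and 0.39 for young TSA, where counting alone gives 0.145, 0.163 and 0.149. For old TSA and old vehicle the SD was 0.44 and 61.8% of bases were in both. Against the pair with young vehicle, the ratios spread less and, in the full lists, fewer bases were common. In the lists cut to 5727 peaks this gap was small, with 64.7% for old vehicle and 65.3% for young vehicle. For old TSA and young TSA the SD was 0.48 and 66.4% of bases in the full lists were in both. These pairs share libraries and are not independent.

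**Figure D3:**
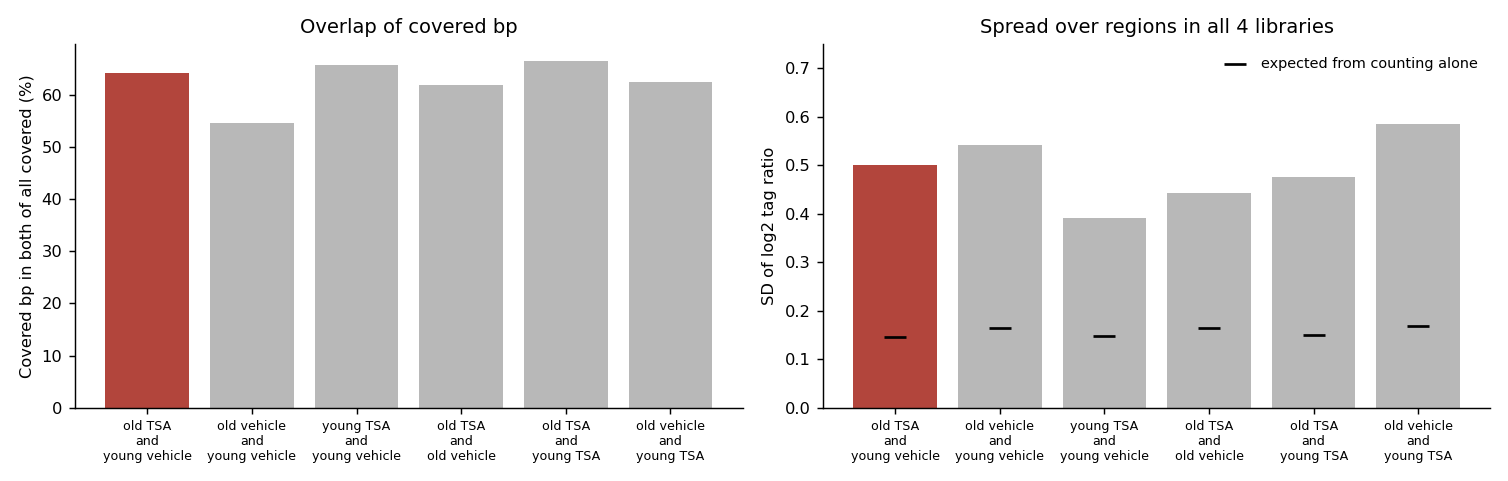
Left, bases covered in both of the bases covered in either (%), for each pair of the 4 H3K27ac libraries. Right, spread (SD) of log2 tag ratios at the 3706 regions marked in all libraries, with the SD that counting alone gives as a black dash. The pair old TSA and young vehicle (red) stands at 64.2% and 0.50.

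Peaks were also followed by presence. Of the 3051 regions with a young vehicle peak and no old vehicle peak, 1268 held an old TSA peak, 41.6% (39.8 to 43.3). Of the 285 regions with an old vehicle peak and no young vehicle peak, 161 held one, 56.5% (50.5 to 62.3). Of the 4187 regions with both, 4019 held one, 96.0% (95.3 to 96.6). The old TSA list is longer than the old vehicle list, and the part of list length in the first share was not tested.

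Genes were compared by the tags in the gene and 10000 bp either side, a window that can hold peaks of neighbours. Of 3788 protein-coding genes, 2326 had a peak in old TSA and 2330 in young vehicle, 70 only in old TSA and 74 only in young vehicle. Among 2254 genes with a peak of both and at least 50 tags, 80 were at least 2-fold higher in old TSA (3.55%) and 37 at least 2-fold lower (1.64%). The ratio was above the median of shared regions in 42.9% of genes and below it in 57.1%, with a gene median of -0.07. Covered length was shorter in old TSA at 71.9% of the 2400 genes with a peak in either library and longer at 28%. The genes with the longest coverage were largely common: 86 of the 100 longest in old TSA were among the 100 longest in young vehicle. Tns1, which encodes the focal adhesion protein tensin 1, led both libraries, followed in old TSA by Nav1, Itpkb, Tshz2 and Dab2ip and in young vehicle by Itpkb, Rbms1, Tshz2 and Fndc3b.

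The genes highest in old TSA were a mixed group. Il12a, which encodes the p35 subunit of interleukin 12 (chromosome 3, 68690644 to 68698550), had 343 tags in old TSA, against 49 in young vehicle, a centred log2 ratio of 2.91 ± 0.22 (counting error, here and below). Plekha6, a pleckstrin homology domain gene (chromosome 1, 133162032 to 133303435), had 1061 tags in old TSA and 216 in young vehicle, a ratio of 2.40 ± 0.11. Kcnt2, a sodium-activated potassium channel gene, had 304 tags in old TSA and 55 in young vehicle. These 3 genes exceed 5-fold on the centred scale.

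Other genes among the 10 highest encode enzymes and a secreted protein. Hsd11b1 encodes the enzyme that regenerates active glucocorticoid (chromosome 1, 193221640 to 193264045) and had 702 tags in old TSA, against 234 in young vehicle (1.68 ± 0.11). Cyp27a1, the sterol 27-hydroxylase gene, had 499 tags in old TSA and 199 in young vehicle (1.43 ± 0.12). Myoc, the gene of the secreted glycoprotein myocilin, had 1267 tags in old TSA and 496 in young vehicle (1.45 ± 0.08). The rest of the 10 highest were D630003M21Rik, Bahd1, Ogfrl1 and B3galt1, with ratios of 1.75, 1.67, 1.49 and 1.39. Without the flanks of the window, Bahd1 stood at 0.74.

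Postn had the lowest ratio of all genes named by rank. Its window (gene at chromosome 3, 54359267 to 54391041) held 147 tags over 772 bp in old TSA, against 670 tags over 3636 bp in young vehicle, a centred log2 ratio of -2.09 ± 0.13. Old vehicle had 131 tags there and young TSA 333. At the printed start old vehicle had no peak and young TSA had one. The 2 old libraries had the fewest tags at Postn, and young TSA lay between them and young vehicle. In the gene without flanks the ratio was -3.40.

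Other genes low in old TSA had varied roles. Cp, which encodes the copper-carrying ferroxidase ceruloplasmin, had 283 tags in old TSA and 1014 in young vehicle (-1.74 ± 0.10). Palmd, the palmdelphin gene, had 1023 tags in old TSA and 2396 in young vehicle (-1.13 ± 0.05). St8sia4, which encodes a polysialyltransferase, had 423 tags in old TSA and 988 in young vehicle (-1.12 ± 0.08). Veph1, Fam124b, Bard1, Lmx1a and Neurl3 were also among the 10 lowest, with ratios of -1.83, -1.64, -1.52, -1.17 and -1.12. Without the flanks, Lmx1a stood at -0.94 and Neurl3 at -0.76.

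The landmark libraries differed at these genes. Relative to young vehicle, Plekha6 stood at 2.40 in old TSA, 1.91 in old vehicle and -0.74 in young TSA, and Myoc at 1.45 in old TSA, 1.38 in old vehicle and -0.53 in young TSA. Palmd stood at -1.13 in old TSA, -1.10 in old vehicle and -0.36 in young TSA. At these 3 genes the old libraries lay together and young TSA lay apart from them. Hsd11b1 and Cyp27a1 were also high in old vehicle, at 1.07 and 1.18, and stood at 0.23 and 0.10 in young TSA. Bahd1 and Cp differed, at 0.75 and -0.70 in old vehicle and 0.83 and -0.94 in young TSA. Il12a was high in all 3, at 2.91 in old TSA, 1.58 in old vehicle and 2.34 in young TSA. Kcnt2 was high in old TSA, stood at -0.31 in old vehicle and had no peak in young TSA. St8sia4 stood at -1.12 in old TSA, -2.83 in old vehicle and -0.31 in young TSA, so old TSA lay between old vehicle and young vehicle. All these ratios share the young vehicle library, and those of old vehicle and young TSA are centred on the 3706 regions in all 4 libraries, where the median log2 ratio was -0.61 for old vehicle and -0.12 for young TSA.

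**Figure D4:**
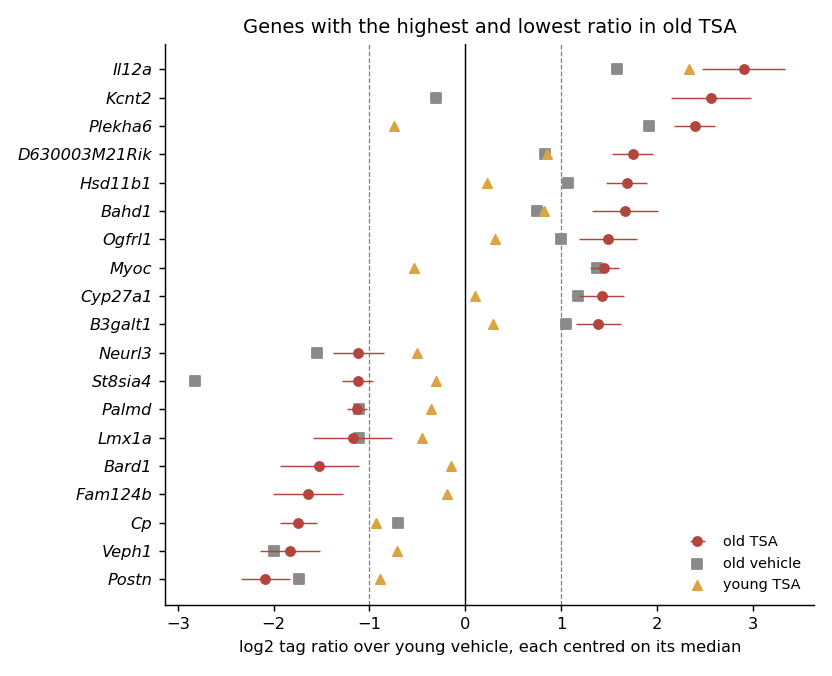
Centred log2 tag ratio over young vehicle in the windows of the 10 genes highest and 9 of the 10 lowest in old TSA, for old TSA (red circles, bars of the 95% counting interval), old vehicle (grey squares) and young TSA (yellow triangles). Dashed lines mark 2-fold, and a missing symbol means that the library had no peak in the window. Genes were chosen by the old TSA ratio, which ranges from -2.09 at Postn to 2.91 at Il12a.

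Matrix genes as a list lay near the share of all genes, while single members stood apart. Of 19 fibrosis and matrix genes with a ratio, 8 lay above the median of shared regions and 11 below, with a list median of -0.14, against -0.07 for all genes, of which 57.1% lay below. Covered length was shorter in 15 of 20, against 71.9% of all genes. Col3a1, a fibrillar collagen gene (chromosome 1, 45311538 to 45349706), had 2438 tags in old TSA, against 3917 in young vehicle (-0.58 ± 0.04). Col5a2, a type V collagen chain gene, had 1258 tags in old TSA and 2488 in young vehicle (-0.88 ± 0.05), and Fbn1, the fibrillin-1 gene, 3908 in old TSA and 5717 in young vehicle (-0.45 ± 0.03). The neighbouring Col3a1 and Col5a2 lie in the 2 Mb of chromosome 1 from 44000001 to 46000000, which had the lowest median ratio, -0.47 over 50 shared regions, of the 105 such bins with at least 20 shared regions.

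Col5a1 and Col6a3 went the other way by small amounts, with 5085 tags in old TSA and 4904 in young vehicle at Col5a1 (0.15 ± 0.03), and 3493 in old TSA and 3193 in young vehicle at Col6a3 (0.23 ± 0.04). Lamc1, a laminin chain gene, and Fndc3b were lower, at -0.48 and -0.40. Postn, described above, was the member at least 2-fold lower, and Col4a4, a basement membrane collagen gene, the one at least 2-fold higher, with 415 tags in old TSA and 162 in young vehicle (1.46 ± 0.13). Old vehicle had 40 tags at Col4a4 and young TSA 225. Fn1, the fibronectin gene, had 1073 tags in old TSA and 1149 in young vehicle, a centred ratio of 0.00 ± 0.06. Tnn, the tenascin W gene, had no peak in old TSA and 145 tags in young vehicle.

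Genes of FAP identity carried peaks in both libraries. All 10 in the stretch had peaks in old TSA and in young vehicle, as did 2256 of all 3788 genes. Of the 10, 5 lay above and 5 below the median of shared regions, where 42.9% of all genes lay above. The list median was -0.01, against -0.07 for all genes. Pdgfra, the usual surface marker, lies outside the stretch. Gsn, the gelsolin gene, whose product severs actin filaments (chromosome 2, 35256359 to 35307902), was the highest, with 3421 tags in old TSA and 1844 in young vehicle (0.99 ± 0.04). Old vehicle had 2317 tags at Gsn, a ratio of 0.94, and young TSA 1631, a ratio of -0.06. Cd34, a progenitor surface antigen gene, had 2751 tags in old TSA and 4055 in young vehicle (-0.46 ± 0.04), and Dpp4, a marker of an upstream progenitor state, stood at -0.43. Tshz2, Zeb2 and the limb mesenchyme factor Prrx1 stood at -0.19, -0.08 and -0.18. Twist2 stood at 0.59 in old TSA and -0.58 in old vehicle. Prg4, the lubricin gene, had 697 tags in old TSA and 721 in young vehicle, and was low in young TSA, with 60 tags.

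Signalling genes of the Wnt, Notch and Hedgehog pathways were mostly higher in old TSA. Of 12 with a ratio, 8 lay above the median of shared regions and 4 below, where 42.9% of all genes lay above. The list median was 0.40, against the gene median of -0.07. Gli2, a transcription factor of Hedgehog signalling (chromosome 1, 118834061 to 119054405), had 1408 tags over 8322 bp in old TSA, against 612 tags over 4124 bp in young vehicle (1.30 ± 0.07). Old vehicle had 414 tags and young TSA 769, ratios of 0.05 and 0.45, so old TSA lay above the other 3 libraries. Ccn5, a matricellular gene of the Wnt pathway, had 505 tags in old TSA and 223 in young vehicle (1.28 ± 0.12), with 0.87 in old vehicle and -2.10 in young TSA.

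Receptors and ligands of these pathways differed in direction. The Wnt receptor genes Fzd7 and Fzd5 stood at 0.79 ± 0.06 and 0.93 ± 0.19. Notch2 had 3408 tags in old TSA and 2557 in young vehicle (0.51 ± 0.04), and Jag1, a Notch ligand gene, 2572 in old TSA and 2237 in young vehicle (0.30 ± 0.04). At Notch1 the pair differed little, with 2873 tags in old TSA and 3140 in young vehicle (-0.03 ± 0.04), while old vehicle stood at -0.92. Dll4, a Notch ligand gene of endothelium, and the Notch target Hey1 stood at -0.08 and -0.29 in old TSA, and at -0.95 and -1.08 in old vehicle. At Notch1, Dll4 and Hey1 old TSA thus lay nearer to young vehicle than old vehicle did. Dll4 and Notch1 are active in endothelial cells too, whose markers are given below, and their part in these values was not tested. Grem1, Ihh, Sfrp2, Wnt6, Wnt10a and Frzb had no peak in either library.

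Cell cycle genes stood lower in old TSA. Of 16 with a ratio, 15 lay below the median of shared regions and 1 above, with a list median of -0.51, where 57.1% of all genes lay below. Covered length was shorter in 18 of the 20 members with a peak in either library, against 71.9% of all genes with a peak. Mcm6, a subunit of the replicative helicase (chromosome 1, 128331575 to 128359705), had 94 tags in old TSA and 207 in young vehicle (-1.04 ± 0.18), with -0.91 in old vehicle and 0.10 in young TSA. Tpx2, a spindle assembly factor gene, had 63 tags in old TSA and 147 in young vehicle (-1.12 ± 0.22). Smc4, a condensin subunit gene, had 783 tags in old TSA and 1284 in young vehicle (-0.61 ± 0.07). Aurka, the gene of the mitotic kinase Aurora A, had 275 tags in old TSA and 444 in young vehicle (-0.59 ± 0.11).

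Some cell cycle genes had a peak in 1 library only, all of them weak. Of the 2400 genes with a peak in either library, 70 had one only in old TSA and 74 only in young vehicle. Cdca7, Nek2 and Ube2c had no peak in old TSA and 101, 59 and 35 tags in young vehicle, and Kif14 had 51 tags in old TSA and no peak in young vehicle. Cdc25b, whose promoter is printed above, was the member above the median, with 1392 tags in old TSA and 1059 in young vehicle (0.49 ± 0.06). Pcna and Cks1b stood at -0.19 and -0.05. E2f1, whose product drives entry into S phase, stood at -0.22 ± 0.09 in old TSA and -1.03 in old vehicle. Over the 13 members with a ratio in all 3 libraries, the list median against young vehicle was -0.44 in old TSA, -0.25 in old vehicle and 0.00 in young TSA. Many members lie at 1 promoter peak of few tags, so that single ratios carry counting errors up to 0.28.

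Housekeeping genes also lay low. Of 28, 24 were below the median of shared regions and 4 above, where 57.1% of all genes lay below. The list median was -0.22, against -0.07 for all genes. Covered length was shorter in 27, against 71.9% of all genes with a peak. The lowest was Nop58, a nucleolar protein gene, with 369 tags in old TSA and 647 in young vehicle (-0.71 ± 0.09). The ribosomal protein genes Rpl12 and Rpl7 stood at -0.00 and 0.01, and the splicing factor gene Sf3b1 at -0.35. The list medians were -0.22 in old TSA, -0.20 in old vehicle and 0.02 in young TSA. Hspd1 and Hspe1, and Eef1b2 and Ndufs1, share their peaks within each pair and are not separate measurements.

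Endothelial genes were lower in old TSA. All 7 with a ratio lay below the median of shared regions, where 57.1% of all genes lay, with a list median of -0.43. Covered length was shorter in 8 of 8, against 71.9% of all genes with a peak. Aplnr, the apelin receptor gene (chromosome 2, 85136360 to 85139923), had 814 tags in old TSA and 1706 in young vehicle (-0.97 ± 0.06). S1pr1, a sphingosine phosphate receptor gene, had 1318 tags in old TSA and 1959 in young vehicle (-0.47 ± 0.05), and Sox17, an endothelial transcription factor gene, 995 in old TSA and 1440 in young vehicle (-0.43 ± 0.06). Egfl7 and Eng stood at -0.13 and -0.31, and Sox18 at -0.21. Summed over the list, tags, which are not centred, were 11804 in old TSA, 6808 in old vehicle and 15609 in young TSA, against 16012 in young vehicle. On the centred scale, list medians were taken over the 6 members with a ratio in each library. Against young vehicle they were -0.37 in old TSA, -0.57 in old vehicle and 0.13 in young TSA. The adhesion genes Sele and Selp had no peak in either library. Endothelial markers thus carried acetylation in these sorted cells: Egfl7 had 3238 tags in old TSA, 1796 in old vehicle and 4085 in young TSA, against 3805 in young vehicle.

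Smooth muscle and pericyte genes were higher in old TSA at all 4 members with a peak, with a list median of 0.83. Of all genes, 42.9% lay above the median of shared regions. Csrp1 had 1363 tags in old TSA and 990 in young vehicle (0.56 ± 0.06). Myl9, a myosin light chain gene of smooth muscle, had 345 tags in old TSA and 173 in young vehicle (1.095 ± 0.13). Lmod1, a smooth muscle actin regulator gene, had 247 tags in old TSA and 91 in young vehicle (1.54 ± 0.18), and stood at -0.06 in old vehicle. Rgs5, a pericyte marker, had 238 tags in old TSA and 182 in young vehicle (0.49 ± 0.14). Rgs4 and Itga8 had no peak in either library. Summed tags, which are not centred, were 2193 in old TSA, 856 in old vehicle and 1460 in young TSA, against 1436 in young vehicle. On the centred scale the list medians against young vehicle were 0.83 in old TSA, 0.21 in old vehicle and 0.13 in young TSA. The part of endothelial, pericyte and smooth muscle cells in the sorted population in any other result was not tested.

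Markers of further cell types had peaks at a share of members that varied by list. Of all 3788 protein-coding genes, 2400 had a peak in either library. Of 14 macrophage genes in the stretch, 9 had one, and Ptprc, Cd53, Ctss, Marco and Fcgr2b had none. Of 17 lymphocyte genes 10 had one, of 6 muscle stem cell genes 5, and of 14 muscle fibre genes 5. Spi1, which encodes the factor PU.1, had 217 tags in old TSA and no peak in young vehicle. The macrophage list median was 0.05 (0.79 with narrower flanks) over 6 genes, 4 above and 2 below, with Sirpa at 0.46, Fcgr4 at 0.03 and Fcgr3 at -0.07. Among 14 muscle fibre genes, Ttn, Des, Neb, Myl1, Tnnt2, Mybph, Mybpc3, Klhl41 and Xirp2 had no peak in either library, and the 4 with a ratio, Casq1 (0.21), Tnnc2 (0.15) and Tmod4 (-0.47) among them, had a median of 0.12. Their summed tags were 2825 in old TSA and 2730 in young vehicle.

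Lymphocyte genes had a median of 0.15, with 9 of 10 above and 1 below, where 42.9% of all genes lay above. Cd2 stood at 0.22 and Cd247 at 0.03. Il2ra and Cd28 were at least 2-fold higher, as were 3.55% of all genes. Il2ra had 438 tags in old TSA and 231 in young vehicle (1.02 ± 0.12). Cd28 had 165 tags in old TSA and 85 in young vehicle (1.06 ± 0.19). Ctla4, Zap70, Cd48, Ly9, Xcl1 and Slamf1 had no peak in either library. Rag1 and Rag2 share the same peaks and both stood at 0.01. Summed tags of macrophage genes were 4383 in old TSA and 3518 in young vehicle, and those of lymphocyte genes 4346 in old TSA and 4216 in young vehicle. Muscle stem cell genes had a median of 0.22 over 5, 3 above and 2 below: Myog, a transcription factor of differentiating myoblasts, had 70 tags in old TSA and 204 in young vehicle (-1.44 ± 0.20), Sdc4, Msc, Spry1 and Vcam1 stood at 0.74, 0.52, 0.22 and -0.16, and Pax3 had no peak in either library. Among tenocyte and Schwann cell genes Prelp stood at 0.48, Fmod and Kcna2 had a peak in old TSA and none in young vehicle, and Col11a1, Cdh19, Mal, Sox2 and Pmp2 had none in either. Of 20 neural genes, listed as background, 6 had a peak in either library and 5 a ratio, with a median of 0.82 led by Kcnt2 and by Syt2, with 881 tags in old TSA and 324 in young vehicle (1.54 ± 0.09).

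Adipogenic and senescence genes lay on both sides. Of 8 adipogenesis genes, 5 lay above and 3 below, with a median of 0.29, against -0.07 for all genes, of which 42.9% lay above. Cebpb, an early adipogenic transcription factor gene, had 1283 tags in old TSA and 882 in young vehicle (0.64 ± 0.06), Rxra, Irs1 and Adipor1 stood at 0.31, 0.27 and -0.42, and Fabp4, a fatty acid binding protein gene, at -0.50. Fabp5 had no peak in old TSA and 167 tags in young vehicle. Of 6 senescence and secretory genes, 4 lay above and 2 below, with a median of 0.11. Igfbp5, whose product binds insulin-like growth factors, had 511 tags in old TSA and 334 in young vehicle (0.71 ± 0.10), Serpine2 and Tgfb2 both stood at 0.17, and Btg2 at -0.11. Bmp2 had 116 tags in old TSA and no peak in young vehicle. Igfbp2, Il1b and Cxcr2 had no peak in either library.

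Of 7 immediate early genes, 2 lay above and 5 below, with a median of -0.32, where 57.1% of all genes lay below. Atf3, a stress-induced transcription factor gene, had 860 tags in old TSA and 394 in young vehicle (1.23 ± 0.09), while Ier5, Dusp10 and Id1 stood at -0.35, -0.32 and -0.08 and Nr4a2 at 0.45. Interferon response genes had 5 above and 8 below with a median of -0.12 (Ifih1 -0.38, Samhd1 -0.34, B2m -0.01). Acetylation enzymes and readers had 9 above and 6 below with a median of 0.03 (Ncoa3 0.12, Ncoa6 0.12, Phf20 -0.09). TGF-beta and BMP signalling genes had 2 above and 3 below with a median of -0.09 (Acvr2a 0.06, Tgfbrap1 0.04, Bmpr2 -0.09). Hdac4, a class IIa deacetylase gene, stood at 0.43 ± 0.07 and Ehmt1, a histone methyltransferase gene, at -0.64 ± 0.09. Of 5 Hox genes with a ratio, all in the Hoxd cluster with overlapping windows, 3 lay above and 2 below, with a median of 0.11 (Hoxd10 0.75, Hoxd9 0.62, Hoxd8 0.11, Hoxd3 -0.08, Hoxd4 -0.37).

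**Figure D5:**
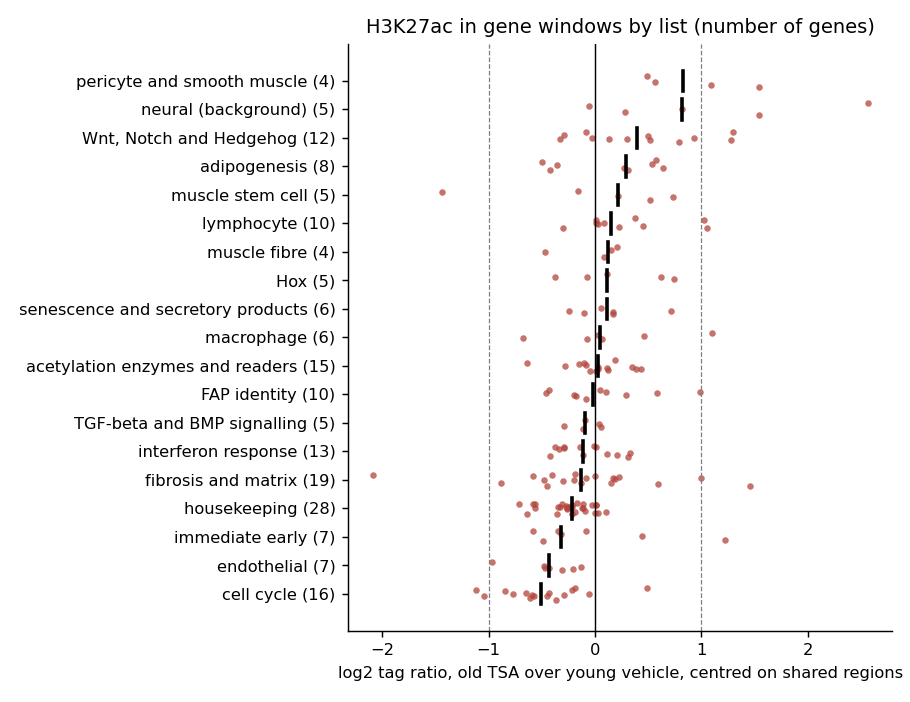
Centred log2 tag ratio, old TSA over young vehicle, of each gene with a peak in both libraries and at least 50 tags (points), by list, with the list median (black bar) and the number of genes in brackets. Cell cycle (-0.51) and endothelial genes (-0.43) lie lowest. Pericyte and smooth muscle (0.83), neural background (0.82) and Wnt, Notch and Hedgehog genes (0.40) lie highest. Points are jittered vertically, and dashed lines mark 2-fold.

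The strongest regions of 1 library only held at most 283 tags in old TSA and 352 in young vehicle. In old TSA the strongest lay outside genes at chromosome 1, 154102545 to 154104266, 96921 bp from the start of Zfp648. The next was the Dab2ip promoter region printed above, chromosome 2, 35581248 to 35583355, with 279 tags, followed by regions inside Col6a3 (262 tags) and Gli2 (259 tags; chromosome 1, 118981498 to 118983416) and 9552 bp from Cst3 (237 tags). The Gli2 and Col6a3 regions had no peak in old vehicle or young TSA either. In young vehicle the strongest lay inside Rbms1 (352 tags; chromosome 2, 60811482 to 60813592), inside Asxl1 (279 tags), outside genes with Calcrl as the gene with the nearest start (276 tags), inside Slc30a7 (253 tags) and inside Frmd4a (252 tags). Of these, only the Asxl1 region had no peak in old vehicle or in young TSA.

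Promoters were also counted by gene. Of 3188 genes with a start in the promoter table, 1564 had a marked promoter in both libraries, 47 in old TSA only, 31 in young vehicle only and 1546 in neither. The order of the single-library counts turned round when 500 bp of the window had to be covered, with 52 in old TSA only and 70 in young vehicle only. Promoters marked in both were covered over a median of 1343 bp in old TSA and 1450 bp in young vehicle, and in 65.4% of them coverage was shorter in old TSA. Besides Dab2ip and Cdc25b, single starts marked in old TSA only included those of Sord (228 tags), D630003M21Rik (138 tags) and a start of Gsn (105 tags). Only refers to this pair of libraries. The starts of Sord and D630003M21Rik also had a peak in old vehicle and young TSA, and that of Gsn in old vehicle. Besides Postn, those marked in young vehicle only included starts of Trim59 (205 tags), Fndc11 (108 tags) and Cdca7 (101 tags). Young TSA also had a peak at each of them, and old vehicle at that of Fndc11. These starts were chosen by their tags after the values were seen.

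Promoters were then compared by base composition and motifs. The median share of G and C in the 300 bases was 62.5% for 64 starts marked in old TSA only, 55.7% for 41 marked in young vehicle only, 61.3% for 1859 marked in both and 50.2% for 1922 marked in neither. The TATA box was found in 4.69% (0.977 to 13.1) of starts marked in old TSA only, 9.76% (2.72 to 23.1) in young vehicle only, 5.59% (4.59 to 6.74) in both and 20.3% (18.6 to 22.2) in neither, and in 12.9% of all. A CCAAT box was found in 37.5% (25.7 to 50.5) of starts marked in old TSA only, 56.1% (39.7 to 71.5) in young vehicle only and 36.7% of all. GC boxes were in 90.6% of starts marked in old TSA only, 70.7% in young vehicle only and 74.0% of all. The TEAD motif was in 12.5% of starts marked in old TSA only, 21.95% in young vehicle only and 13.5% of all. The AP-1 motif was in 0 of 64 starts marked in old TSA only (up to 5.601%), 2.44% in young vehicle only and 7.77% of all. The intervals of the single-library sets are wide and overlap for each motif. Several starts of 1 gene can lie close together and share sequence.

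H3K9/14ac, measured with another antibody in libraries labelled for the same conditions, offers a readout from which the regions were not built. It was compared on chromosome 1 and on chromosome 2 up to position 167064301, with 2474 peaks in the library labelled old TSA and 2711 in that labelled young vehicle. Of H3K27ac regions found in old TSA only, 14.4% (12.2 to 16.8) held an H3K9/14ac peak in old TSA and 9.85% (8.004 to 12.0) in young vehicle. Of regions found in young vehicle only, 6.71% (5.49 to 8.10) held one in old TSA and 7.25% (5.98 to 8.68) in young vehicle. Shared regions held one in 47.9% in old TSA and 46.2% in young vehicle.

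Ratios of both marks were compared where each had peaks in both conditions. Of 41 regions at least 2-fold higher in H3K27ac of old TSA, 31 had an H3K9/14ac ratio above and 10 below its median over shared regions, with a median of 0.27. Of 11 at least 2-fold lower, 3 were above and 8 below, with a median of -0.21. Across 1699 shared regions the Spearman correlation of both marks' ratios was 0.33, a description over regions that share libraries and base composition.

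Named genes gave examples of both kinds. Gsn had 520 H3K9/14ac tags in old TSA and 193 in young vehicle (centred log2 1.62), Gli2 277 in old TSA and 154 in young vehicle (1.03), and Kcnt2 128 in old TSA and 48 in young vehicle (1.60). Aplnr had no H3K9/14ac peak in old TSA and 457 tags in young vehicle, and Col5a2 had 235 in old TSA and 371 in young vehicle (-0.47). Hsd11b1 went against its H3K27ac ratio, with 113 tags in old TSA and 167 in young vehicle (-0.38). These values rest on the labels of the H3K9/14ac libraries. Among those 4 libraries, bases covered in both were 67.1% of bases covered in either for old TSA and young vehicle, 63.2% for old vehicle and young TSA, and between 60.3% and 62.3% for the other pairs. The pair with the most bases in common thus differed in both age and treatment, and whether the labels are in place was not tested.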

How the data were processed

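ChIP-seq peak lists of sorted mouse FAPs were analysed. Per the file headers, each list was written by HOMER with a library's tags set against themselves, and the deposited whole-number tag counts per peak are not normalized. The submitters' processing notes also name Bowtie 0.12.7, MACS2 and build GRCm38, without roles. Each list breaks off at 1 incomplete line, so the H3K27ac stretch holds 18.1% of the old TSA peaks and 18.3% of the young vehicle peaks that the headers count. The 4 input samples and total mapped tags were not used here.

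Peaks that overlapped by 1 bp or touched were merged. Log2 tag ratios, old TSA over young vehicle, were centred on the median of shared regions. A call needed 2-fold and 50 tags in the pair. Tags of peaks that reached over the edge of a window were shared out by overlap. Counting errors came from the tags of both libraries, and intervals are exact binomial at 95%. With 1 library a group no test was possible. Promoter sequences came from RefSeq (GRCm38.p6), which matched 3188 of 3788 genes.

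Named were the 10 highest and 10 lowest genes with at least 200 tags (of overlapping windows, the one with more tags), of each list up to 4 members with most tags and any past 2-fold, the 5 strongest regions of 1 library, the 5 longest windows per library, and the printed promoters. A few genes that meet these rules are not reported here. Other members named were chosen after their values were seen. The comparison, the 21 lists and the rules were chosen with earlier results of these data known. Scripts used Python 3.11.15, pandas 2.3.3 and scipy 1.17.1, and were tested on simulated data.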

Additional observations from a re-analysis of the deposited data

How the results depend on the processing

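Counts of regions moved with list length and with the overlap rule, by construction. Against 5416 shared, 1246 old TSA only and 2044 young vehicle only regions, a reciprocal overlap of 50%, counted in peaks, left 3120 old TSA and 3440 young vehicle peaks unmatched. Lists cut to the strongest peaks, as many as 50% of the shorter list, gave 3004 shared, 542 old TSA only and 675 young vehicle only regions. Peaks of at least 100 tags gave 3351 shared, 505 old TSA only and 857 young vehicle only. The median log2 ratio of -0.10 turned to 0.069 per bp of peak. With a minimum of 200 tags, 120 regions were at least 2-fold higher and 142 lower, against 203 and 244. With 500 bp of a promoter covered, 52 genes were marked in old TSA only and 70 in young vehicle only, against 47 and 31, which turns their order round. With equal lists of 5727 peaks, chosen after seeing the data, bases in both were 65.3% for old TSA and young vehicle, 57.6% for old vehicle and young vehicle, 68.5% for young TSA and young vehicle, 64.7% for old TSA and old vehicle and 67.8% for old TSA and young TSA. Of the 20 genes named by rank, 20 kept their direction in every window tried, and 17 stayed past 2-fold in the gene alone, the others being Bahd1 (0.74), Lmx1a (-0.94) and Neurl3 (-0.76). With narrower flanks, list medians moved most for macrophage (0.79, against 0.05), muscle fibre (0.51, against 0.12) and Hox genes (0.46, against 0.11), and those of immediate early and lymphocyte genes were -0.09 and 0.37, against -0.32 and 0.15. No replicate could be left out with 1 library a group. No paired analysis was possible because each group has 1 library and no test was made. Under 100 tags many peaks of either list had no counterpart in the other, and the part of depth in this was not tested.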
